A study of Mus musculus with 18 samples.

Results

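The genes described here are the mouse odorant receptor genes (Olfr) and the vomeronasal receptor genes (Vmn1r and Vmn2r) that received reads in embryonic fibroblasts. A gene was taken if its symbol was Olfr, Vmn1r or Vmn2r followed by a number, with no pseudogene suffix, and if it had at least 10 counts summed over 18 libraries. The members were thus selected on their counts in these same libraries, the induced activator ones included. The table held 1354 genes with such a symbol, of which 1165 had no count, 148 had 1 to 9 counts and 41 met the rule. These 41 members were 30 of 1060 Olfr genes, 5 of 172 Vmn1r genes and 6 of 122 Vmn2r genes, or 3.03% of the 1354, whereas 46.5% of all 47937 gene IDs had at least 10 counts. Just inside the limit lay Vmn2r118 with 10 counts, Olfr62 and Vmn1r41 with 12 each and Vmn2r5 with 14. Just outside it lay Vmn1r5 and Vmn2r111, with 9 counts each, all of them in the induced activator libraries, and Olfr1033 and Olfr225 with 8 each.

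The RNA came from mouse embryonic fibroblast lines with a doxycycline-inducible dCas9, a Cas9 that binds DNA without cutting it, directed to the major satellite repeat of pericentromeric heterochromatin. The activator line carried dCas9-VPR, a fusion with a strong transcriptional activator, and gave 3 libraries after 6 h in 10 ng/ml doxycycline (VPR_dox) and 3 without induction (VPR). The repressor line carried dCas9-KM and gave 3 libraries after 24 h in 100 ng/ml doxycycline (KM_dox) and 3 without it (KM). The control line carried dCas9-control, with no effector named, and gave 3 libraries after 24 h in 10 ng/ml doxycycline (dCas9_dox) and 3 without it (dCas9). All lines were grown with hygromycin, and the labels do not say whether a line was 1 clone. Induction was shorter in the activator line than in the control line and used more doxycycline in the repressor line, so effector, time and dose cannot be told apart. The labels number the libraries but do not say that they came from separate cultures, so p-values measure only the spread between libraries, which may be technical.

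Odorant receptors are G-protein-coupled receptors of olfactory sensory neurons, in which a single receptor allele is chosen and all others stay packed in heterochromatin. Choice depends on enhancers bound by Lhx2, Ebf and Ldb1, and the chosen receptor needs the chaperones Rtp1 and Rtp2 to reach the cell surface. Vmn1r and Vmn2r genes encode pheromone receptors of the vomeronasal organ, whose neurons signal through the channel Trpc2. Most genes of these families stand in tandem clusters, and the so-called class I odorant receptors share a single cluster on chromosome 7. Fibroblasts are not known for using these receptors.

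Each library held 14928765 to 25262912 counts, and the first principal component took 78.4% of the variance. Between 22641 and 23420 genes had a count in a VPR_dox library, against 20107 to 21331 in any other library. Of 10 fibroblast genes in the marker list, the collagens, Fn1 and Sparc were abundant, but Lum averaged at most 0.263 CPM (counts scaled to a common library size) in any group, and Thy1 averaged 0 CPM in every group except KM, at 0.0181 CPM. The summed level of the list was 22222 to 22913 CPM in VPR_dox libraries and 19446 to 19805 CPM in VPR libraries, most of it Col1a1, Fn1 and Col1a2. Of its 8 genes tested, edgeR called 6 higher and 2 lower in VPR_dox, beside 38.2% and 37.2% of all genes. The 2 lower were Pdgfra, at 31.6 ± 3.44 CPM in VPR_dox and 70.3 ± 4.57 CPM in VPR, and Pdgfrb, at 55.9 ± 6.00 CPM in VPR_dox and 124 ± 4.37 CPM in VPR. The receptors were a minute share of the RNA, 0.00358% to 0.00396% of the counts of a VPR_dox library.

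The summed level of the receptor genes was higher in the induced activator libraries, carried by a small number of Olfr and Vmn2r genes, while 1165 of the 1354 had no count anywhere. The Vmn1r members had a lower mean sum in VPR_dox than in VPR, but their libraries overlapped. All 1354 genes together reached 44.7, 45.2 and 39.6 CPM in the VPR_dox libraries and 4.18, 3.60 and 4.80 CPM in the VPR libraries. The groups did not overlap, and no library of the other lines lay above 5.25 CPM. The mean was 43.2 ± 3.09 CPM in VPR_dox and 4.19 ± 0.601 CPM in VPR (SD, n = 3 each). It was 4.87 ± 0.514 CPM in KM_dox and 3.28 ± 0.604 CPM in KM, and 3.50 ± 0.292 CPM in dCas9_dox and 3.86 ± 0.528 CPM in dCas9. Receptor genes with at least 1 count numbered 82 to 88 in a VPR_dox library and 28 or 29 in a VPR library. The 148 genes below the limit of 10 counts, which are no members, held 202 counts in VPR_dox, 30 in VPR and between 13 and 32 in each of the other groups.

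**Figure D1:**
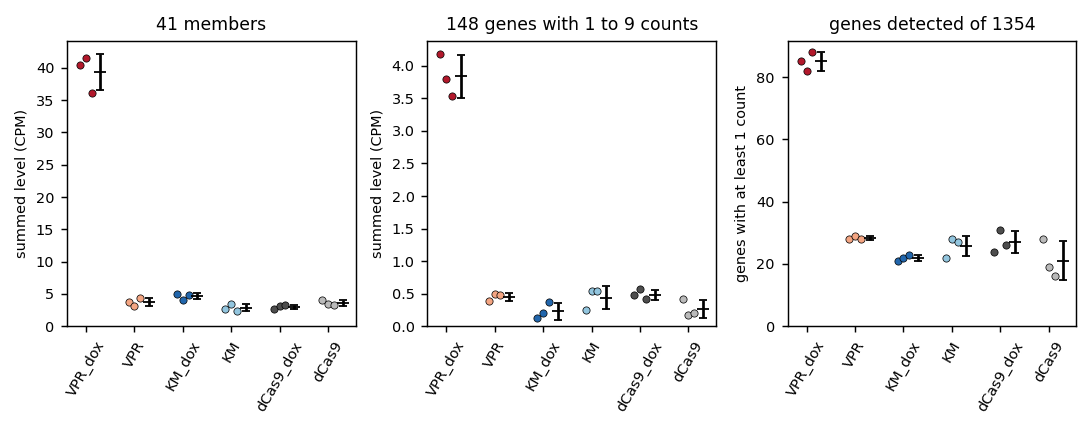
Summed level in CPM of the 41 members (left) and of the 148 receptor genes with 1 to 9 counts (middle), and the number of the 1354 receptor genes with at least 1 count (right), by group; points are libraries and bars are mean ± SD of 3 libraries. The VPR_dox libraries stand above all others in each panel, with 82 to 88 genes detected.

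By family, the 30 Olfr members summed to 32.5 ± 2.43 CPM in VPR_dox and 1.99 ± 0.425 CPM in VPR. The 6 Vmn2r members summed to 5.98 ± 0.488 CPM in VPR_dox and 0.587 ± 0.0178 CPM in VPR. The 5 Vmn1r members differed from both, with 0.849 ± 0.17 CPM in VPR_dox and 1.16 ± 0.172 CPM in VPR. Their groups overlapped, with 1.00 CPM in the highest VPR_dox library and 0.993 CPM in the lowest VPR library. The mean was 0.890 CPM in KM, 0.817 CPM in dCas9_dox, 0.764 CPM in dCas9 and 1.70 CPM in KM_dox. Because the members were chosen with these libraries in the sum and with their rise in view, every value of a member set between VPR_dox and VPR is a description, with no test. The edgeR quasi-likelihood fit, used here as a call rule, kept 19 members after its filter on low counts and left out 22. It called 15 of the 19 higher and 1 lower in VPR_dox, beside 38.2% of 16216 genes called higher and 37.2% called lower. With the filter set to 10 summed counts all 41 members entered: 30 were called higher, 3 lower and 8 neither, beside 32.9% and 29.1% of 22268 genes. A member that entered only through high VPR_dox counts had to differ, so these counts carry no further reading. The 30 called higher were 26 Olfr and 4 Vmn2r genes, and no Vmn1r gene was among them.

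**Figure D2:**
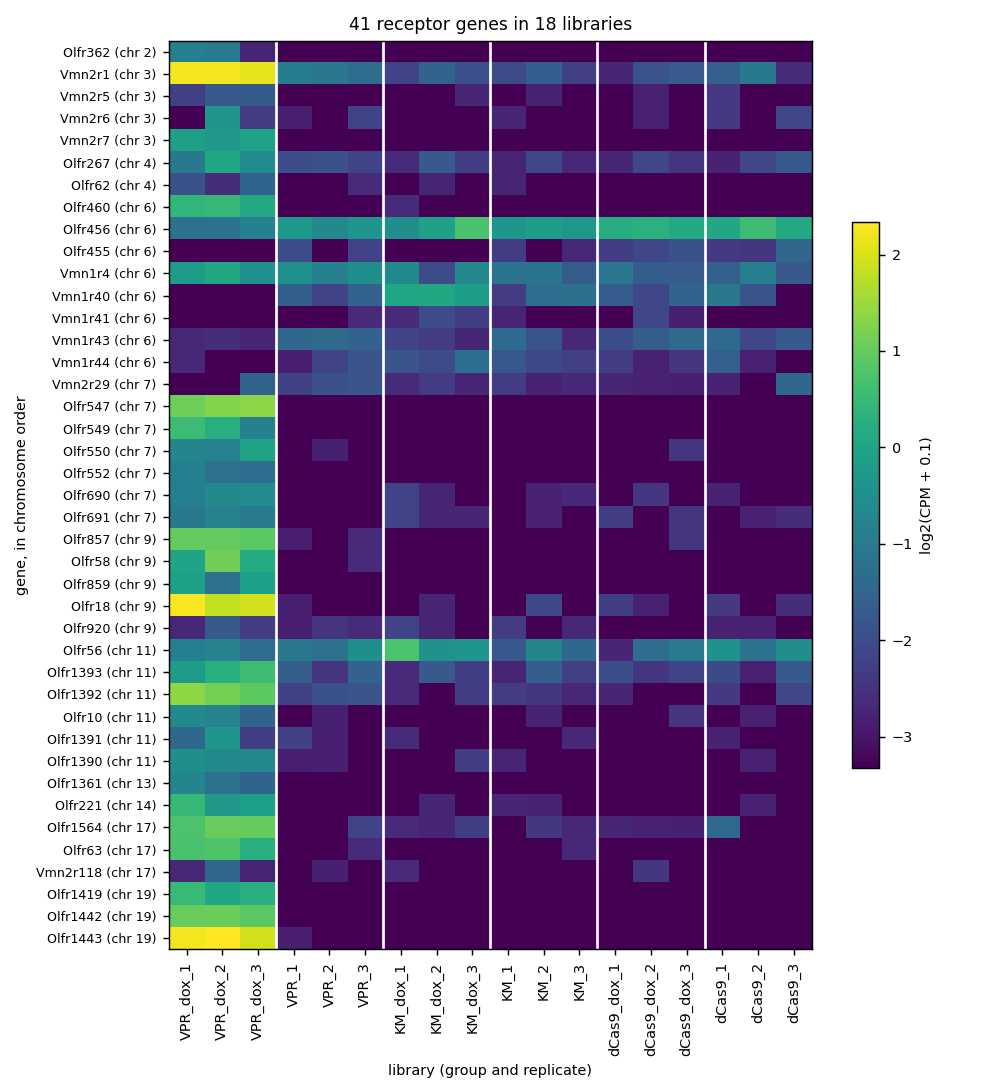
Level of each of the 41 members (rows, in chromosome order) in each of the 18 libraries (columns, 3 per group), as log2(CPM + 0.1) in colour. The bright block at left holds the VPR_dox libraries. Olfr456, Vmn1r40 and Vmn1r43 are darker in each of these than in any VPR library.

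The calls rest on few reads in VPR. Of the 30 members called higher, 14 had no count in the 3 VPR libraries and 9 had none in any of the 15 libraries outside VPR_dox. The VPR_dox libraries held over 80% of all counts of 21 members. In 29 of the 41 members every VPR_dox library lay above every one of the other 15 libraries, which also held for 27.7% of 22268 genes. Where a group had no count, the fold is given as at least the value for a floor of 3 counts over the group. Floors and intervals cover counting error only.

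Olfr1443 and Olfr58 are shown with the sequence before their transcript, because their RefSeq start has a noncoding leader, so that the stretch stands where a promoter would. That start lies at the annotated gene start for Olfr58 and 54 bases inside the gene for Olfr1443, and both stretches end at the base before the annotated gene start. Sequences are RefSeq's on GRCm38.p6, plus strand, 5′ to 3′, and capitals mark the motif CCCNNGGG, the core of the site bound by Ebf factors. Olfr1443 is preceded by chr19:12677916-12678111 and Olfr58 by chr9:19780033-19780282.
Olfr1443: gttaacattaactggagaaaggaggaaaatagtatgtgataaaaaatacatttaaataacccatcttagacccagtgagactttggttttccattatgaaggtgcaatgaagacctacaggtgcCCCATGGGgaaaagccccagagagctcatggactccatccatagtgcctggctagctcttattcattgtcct
Olfr58: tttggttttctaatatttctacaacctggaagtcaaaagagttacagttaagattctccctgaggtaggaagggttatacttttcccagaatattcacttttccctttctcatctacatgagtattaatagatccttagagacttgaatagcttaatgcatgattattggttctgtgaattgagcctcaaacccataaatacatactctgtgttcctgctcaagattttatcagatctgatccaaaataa
The Olfr1443 stretch of 196 bases holds 1 CCCNNGGG motif and no CpG, and the Olfr58 stretch of 250 bases holds neither. RefSeq windows of 300 bases (250 before and 50 after a start) were found for 35 members, 36 windows in all. The motif, on either strand, was in 8.33% of members' windows, 4.19% of 1266 windows of receptor genes and 13.7% of 32851 windows of all genes in the table. The homeodomain core TAATTA, the kind of site Lhx2 binds, was in 2.78% of members' windows, 16.7% of receptor windows and 5.29% of all windows. The median window held 1 CpG in members, 1 in receptor genes and 7 in all genes. For 21 members the RefSeq start is the first coding base, so those windows need not be promoters, and a match or its lack is a description of these letters only.

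Vmn2r1 (ENSMUSG00000027824, chromosome 3, 64081547 to 64109484, plus strand, GRCm38) had the highest mean VPR_dox CPM. It belongs to family C of the Vmn2r receptors, which vomeronasal neurons express together with other Vmn2r types. It had 85, 70 and 83 counts in VPR_dox and 11, 9 and 5 in VPR. The groups did not overlap, and all of the remaining 12 libraries had between 1 and 9 counts. Its level was 4.53 ± 0.248 CPM in VPR_dox and 0.366 ± 0.0592 CPM in VPR, a ratio of pooled levels of 12.05 with an exact 95% interval of 7.96 to 18.99. Vmn2r1 had a count in all 18 libraries, so it was read in uninduced fibroblasts too.

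Its family C neighbours lie within the same cluster of 7 rule genes. Vmn2r7 had 15, 11 and 17 counts in VPR_dox and 0 in every other library, at least 18.1-fold higher in VPR_dox than in VPR. Vmn2r6 had 0, 10 and 2 counts in VPR_dox and 1, 0 and 2 in VPR, so its groups overlapped. Vmn2r5 had 2, 3 and 4 counts in VPR_dox and 0 in each VPR library. Vmn2r6 and Vmn2r7 share 58.6% of the 31-base words of Vmn2r7, so reads of this pair cannot be assigned to either with certainty.

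Olfr1443 and Olfr1442 stand side by side on chromosome 19, between Glyat and Keg1, genes of the glycine acyltransferase kind. Olfr1443 (ENSMUSG00000045030, 12678112 to 12683851) had 84, 74 and 73 counts in VPR_dox, against 1, 0 and 0 in VPR and none in the other 12 libraries. Olfr1442 (12670439 to 12677277) had 35, 30 and 34 counts in VPR_dox and none in the other 15 libraries. No VPR_dox library overlapped any other library for either gene. The ratio of pooled levels was 292 for Olfr1443 with an interval of 51.9 to 11595, and at least 41.8-fold for Olfr1442. Of the 7 genes in the table that overlap this 86.6 kb stretch, 6 lie on the plus strand, and the flanking genes were higher too. Glyat had 846 counts in VPR_dox and 1 in VPR, Keg1 had 378 in VPR_dox and 0 in VPR, and edgeR called both higher. The antisense gene Gm15962, which overlaps Keg1 on the minus strand, was also called higher, with 65 counts in VPR_dox and 0 in VPR. Without the authors' strand setting its reads and those of Keg1 cannot be told apart. The small RNA gene Gm24521 between Glyat and Olfr1442 had 15 counts in VPR_dox and 0 elsewhere. Whether the reads on the receptors come from transcripts of their own or from longer ones through the stretch was not tested. Further along the same cluster, Olfr1419 (minus strand) had 24, 14 and 21 counts in VPR_dox and none elsewhere.

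On chromosome 9, Olfr857, Olfr58 and Olfr859 follow each other on the plus strand within 108 kb. Olfr857 had 34, 28 and 34 counts in VPR_dox and 1, 0 and 1 in VPR. Olfr58 had 16, 31 and 20 counts in VPR_dox and 0, 0 and 1 in VPR. Olfr859 had 15, 5 and 16 counts in VPR_dox and none in the other 15 libraries. No VPR_dox library overlapped a VPR library for any of these genes. Olfr58 shares 36.7% of its 31-base words with Olfr859, and Olfr857 shares 26.2% of its own with Olfr859. The split of reads among these genes is therefore uncertain, while the sum is less so. Olfr18, on the minus strand of the same cluster, had 86, 51 and 73 counts in VPR_dox, against 1, 0 and 0 in VPR. Its level was 3.96 ± 0.691 CPM in VPR_dox and 0.0128 ± 0.0221 CPM in VPR. Its neighbour Zfp560, a zinc finger gene 9042 bases away on the same strand, was called higher at 20.3 CPM in VPR_dox and 9.07 CPM in VPR.

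The class I cluster of chromosome 7 held 6 members out of 120 rule genes. All 6 were called higher with all 41 members entered, while Olfr547 alone of them passed the filterByExpr filter and was called there. Olfr547 (102534749 to 102535684, a single exon) had 37, 35 and 48 counts in VPR_dox and none in the other 15 libraries. Olfr549 had 25, 16 and 9 counts in VPR_dox and likewise none elsewhere. Olfr550 and Olfr552, further along the plus strand, had 33 and 19 counts over the VPR_dox libraries, against 1 and 0 over the VPR libraries. Olfr548-ps1 lies between Olfr547 and Olfr549 and is no member because of its name, although the annotation classes it as protein-coding. It had 208 counts in VPR_dox and 0 in VPR, and 34.3% of the 31-base words of Olfr547 are found in it. Olfr551, on the minus strand among these genes, had no count in any library. Trim21, an antibody receptor and ubiquitin ligase gene on the minus strand inside the stretch, was not called, at 1.84 CPM in VPR_dox and 2.05 CPM in VPR. Olfr690 and Olfr691, at the far end of the cluster, had 27 and 22 counts in VPR_dox and none in VPR.

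On chromosome 11 all 5 rule genes of a 63.9 kb stretch, Olfr1393, Olfr1392, Olfr10, Olfr1391 and Olfr1390, were called higher with all members entered, and all lie on the plus strand. Olfr1392 had 45, 32 and 35 counts in VPR_dox and 3, 4 and 3 in VPR, a ratio of 14.2 with an interval of 7.43 to 30.4. Olfr1393, a receptor known for a role in glucose transport of the kidney tubule, had 14, 16 and 27 counts in VPR_dox and 6, 2 and 4 in VPR. Neither gene's groups overlapped, and Olfr1393 had a count in all 18 libraries. The pair shares many words, 36.3% of those of Olfr1393, so the split between them is uncertain. The first gene before the stretch, Mgat1, an enzyme of N-glycan synthesis 15274 bases before Olfr1393, was called lower at 33.2 CPM in VPR_dox and 64.5 CPM in VPR.

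**Figure D3:**
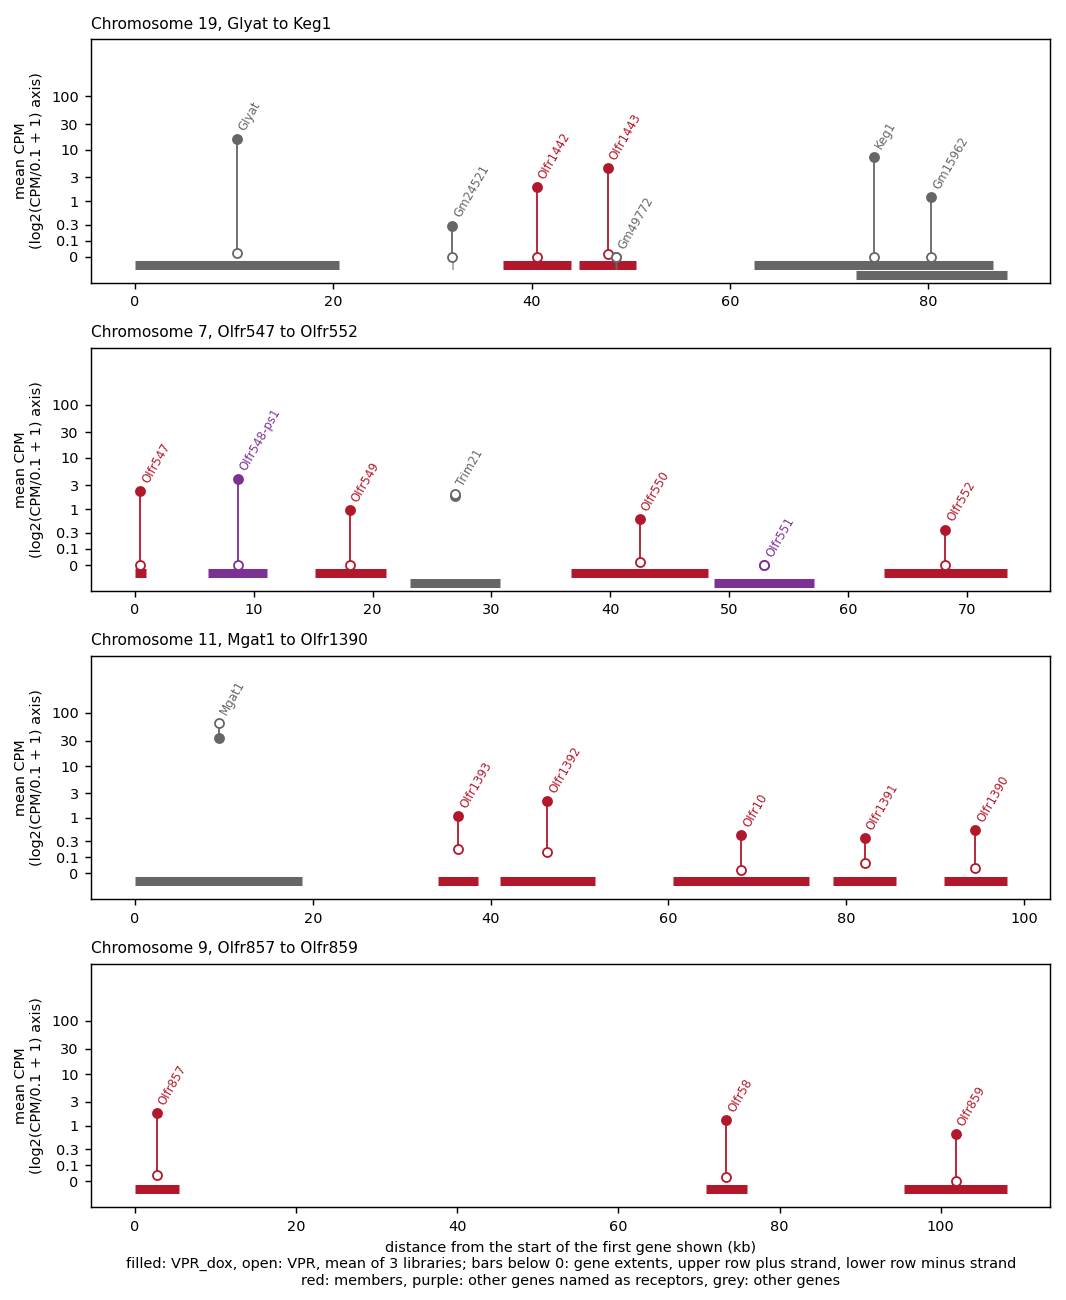
Mean level in VPR_dox (filled) and VPR (open) of each gene of the table that overlaps 1 of 4 stretches with neighbouring members, against distance in kb from the first gene shown; the vertical axis is a log2(CPM/0.1 + 1) scale. Members are red, other genes with a receptor name purple and other genes grey; Glyat, Keg1 and the antisense Gm15962 are higher beside Olfr1442 and Olfr1443, Trim21 is level and Mgat1 is lower in VPR_dox.

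On chromosome 17, Olfr1564 had 29, 29 and 37 counts in VPR_dox and 0, 0 and 2 in VPR, and Olfr63 had 28, 24 and 21 in VPR_dox and 0, 0 and 1 in VPR. The pair lies on opposite strands, and no VPR_dox library overlapped a VPR library. The zinc finger gene Zfp955a between them was called lower, at 8.66 CPM in VPR_dox and 12.8 CPM in VPR. Outside clusters with several such members stood Olfr460 on chromosome 6, with 22, 19 and 19 counts in VPR_dox and 0 in VPR, and Olfr221 on chromosome 14, with 23, 11 and 16 in VPR_dox and 0 in VPR. The maltase gene Mgam, 54488 bases from Olfr460, was called higher, at 6.08 CPM in VPR_dox and 0.0478 CPM in VPR. Clec5a, 551 bases from Olfr460, had no count in VPR_dox or VPR.

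With receptor-named genes joined into clusters at gaps under 1 Mb, the annotation held 96 clusters. Members lay in 18 of them and the 30 members called higher with all 41 entered lay in 12, on 11 chromosomes. The 6 clusters of chromosomes 3, 7, 9, 11, 17 and 19 that held at least 2 such members held 24 of the 30, or 80%, and the share was the same with gaps of 0.5 Mb and 2 Mb. Neighbouring receptors are similar in sequence and can share reads or a transcript, so they are not independent counts. For the nearest expressed gene that is no receptor, 8 of the 30 members had one called higher, 18 one called lower and 4 one with neither call. Expressed meant a mean of at least 1 CPM in VPR or in VPR_dox. Glyat, Keg1 and Mgam met this only through VPR_dox, and AC113458.1, the gene nearest Vmn2r5, Vmn2r6 and Vmn2r7, only through VPR. The higher calls of the former and the lower call of the latter thus carry no further reading. Over all 16216 genes, taken by a different filter, 38.2% were called higher and 37.2% lower. Several members share such a gene, so these are not counts of separate genes. The 5 members of the chromosome 11 stretch share Mgat1, and the 4 with neither call share Trim21. The distance to that gene ran from 2079 to 439381 bases. Of the 30, 18 lie on the plus strand and 12 on the minus strand. No annotated transcript of a member shared a 15-base word with Gm10800, a transcript model made of major satellite sequence. Introns and the DNA around the members were not searched for such words.

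Levels between genes are comparable only per length. In CPM per kb of annotated exon, VPR_dox libraries gave Olfr547 2.43 ± 0.231, Olfr18 1.36 ± 0.238 and Olfr1443 1.01 ± 0.142. Olfr547 lay above all others in each of the 3 libraries, and Olfr18 lay above Olfr1443 without overlap. Olfr857 followed at 0.792 ± 0.0327 and Vmn2r1 at 0.66 ± 0.0361, and these also did not overlap each other. Olfr1392, Olfr58, Olfr1442 and Olfr549, between 0.512 and 0.578 on average, overlapped each other and have no clear order. Olfr1392 and Olfr549 also overlapped Vmn2r1, and Olfr58 overlapped both Vmn2r1 and Olfr857. The 3 members with the highest CPM held 32.8% of the members' summed VPR_dox level, and the highest 5 held 44.0%.

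**Figure D4:**
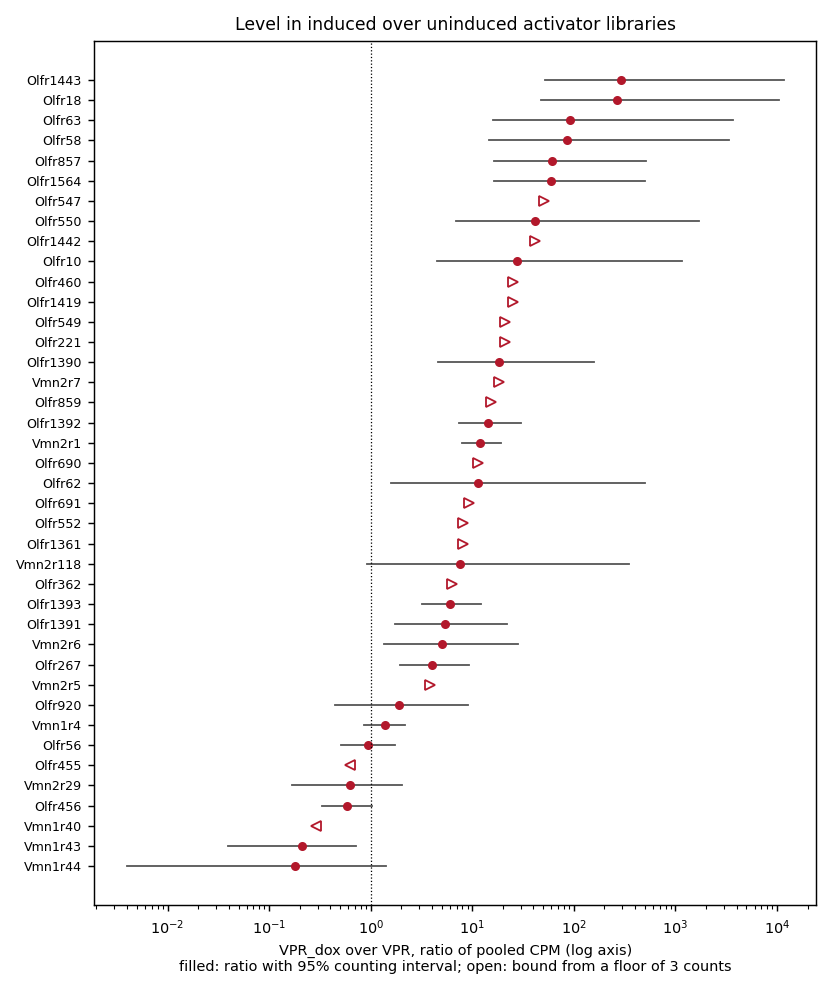
Ratio of the pooled level in VPR_dox over VPR for the 40 members with a usable value, on a log axis; filled points carry exact 95% counting intervals and open triangles are bounds from a floor of 3 counts. Values above 1 are higher in VPR_dox; Olfr1443 reaches 292, while Vmn1r40 and Vmn1r43 lie below 1.

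Not all members were called higher. Vmn1r4 had 14, 14 and 12 counts in VPR_dox and 16, 11 and 10 in VPR, and was present in all 18 libraries. Scaled to library size, it was at 0.773 ± 0.160 CPM in VPR_dox and 0.559 ± 0.0898 CPM in VPR. Its VPR_dox libraries lay above all the other 15, though barely above the highest VPR library. The ratio of pooled levels was 1.37 with an interval of 0.853 to 2.20, and the fit did not call it. Olfr456 had 6, 5 and 9 counts in VPR_dox and 19, 13 and 11 in VPR. Its VPR_dox libraries lay below all the other 15, at 0.375 ± 0.0741 CPM in VPR_dox and 0.645 ± 0.0975 CPM in VPR, but the fit did not call it. Scaling to total counts or to mitochondrial genes did call it lower. Olfr456 was also the member with the highest mean over the libraries outside VPR_dox, and 39.1% of its words are found in Olfr457.

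The Vmn1r members of chromosome 6 between 89698719 and 90271213 ran the other way. Vmn1r40 (ENSMUSG00000096051, 89707540 to 89716657) had no count in VPR_dox and 6, 3 and 4 in VPR, at least 3.42-fold lower in VPR_dox. Vmn1r43 had 1 count in each VPR_dox library and 7, 7 and 4 in VPR. Vmn1r44 had 1, 0 and 0 counts in VPR_dox and 1, 3 and 3 in VPR, and Vmn1r41 had none in VPR_dox and 1 in VPR. Among these Vmn1r genes the groups overlapped for Vmn1r44 and Vmn1r41. The odorant receptor Olfr455, on another stretch of chromosome 6, had no count in VPR_dox and 4, 0 and 2 in VPR, so its groups overlapped. With all members entered, the fit called Vmn1r40, Vmn1r43 and Olfr455 lower.

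The repressor induction could be tested, since the rule did not single out these libraries. Few members could be read here: of the 19 that passed the filter, 10 had at most 3 counts over the 6 KM_dox and KM libraries, too few for a call, and 6 had at least 10. Of the 19, 2 rose in KM_dox (edgeR quasi-likelihood test, Benjamini-Hochberg adjustment over 16216 genes), and 9.81% of all genes were called, a share that cannot be set against so few readable members. In a fit of KM_dox and KM alone 3 members entered and the same 2, Vmn1r40 and Olfr56, were called higher. Both met the filter on low counts there only through their KM_dox libraries, as Vmn1r40 did with all libraries fitted. That repeat is therefore no independent support. The filter of 10 summed counts, which these genes meet without KM_dox, also called both. Vmn1r40 had 15, 19 and 15 counts in KM_dox and 2, 7 and 6 in KM. Its level was 0.882 ± 0.0782 CPM in KM_dox and 0.246 ± 0.128 CPM in KM, a log2 fold change of 1.82 (SE 0.43, adjusted p = 0.00171). Every KM_dox library lay above every KM library. Its neighbour Vmn1r41 had 1, 3 and 2 counts in KM_dox and 1, 0 and 0 in KM, too few for the test.

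Olfr56 had 26, 13 and 13 counts in KM_dox and 4, 11 and 5 in KM, a log2 fold change of 1.51 (SE 0.41, edgeR adjusted p = 0.00718). The groups did not overlap, but the highest KM library came close, with 0.492 CPM against 0.647 CPM in the lowest KM_dox library. Without the first KM_dox library the log2 fold change was 1.02 and was no longer called (edgeR adjusted p = 0.205), and without the first KM library it was 1.25 (edgeR adjusted p = 0.0726). The annotated extent of Olfr56 on chromosome 11, 48978889 to 49135387, runs over genes of the interferon-inducible GTPase kind, and 111 bases of its exons are shared with Ifi47 on the same strand. Ifi47 also rose in KM_dox, at 3.96 ± 0.464 CPM in KM_dox and 2.41 ± 0.561 CPM in KM (log2 fold change 0.71, edgeR adjusted p = 0.00308). The gene 9930111J21Rik2, on the other strand inside the same extent, rose by a log2 value of 0.70 (edgeR adjusted p = 0.00471). The part of these genes' reads in the value of Olfr56 was not tested.

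**Figure D5:**
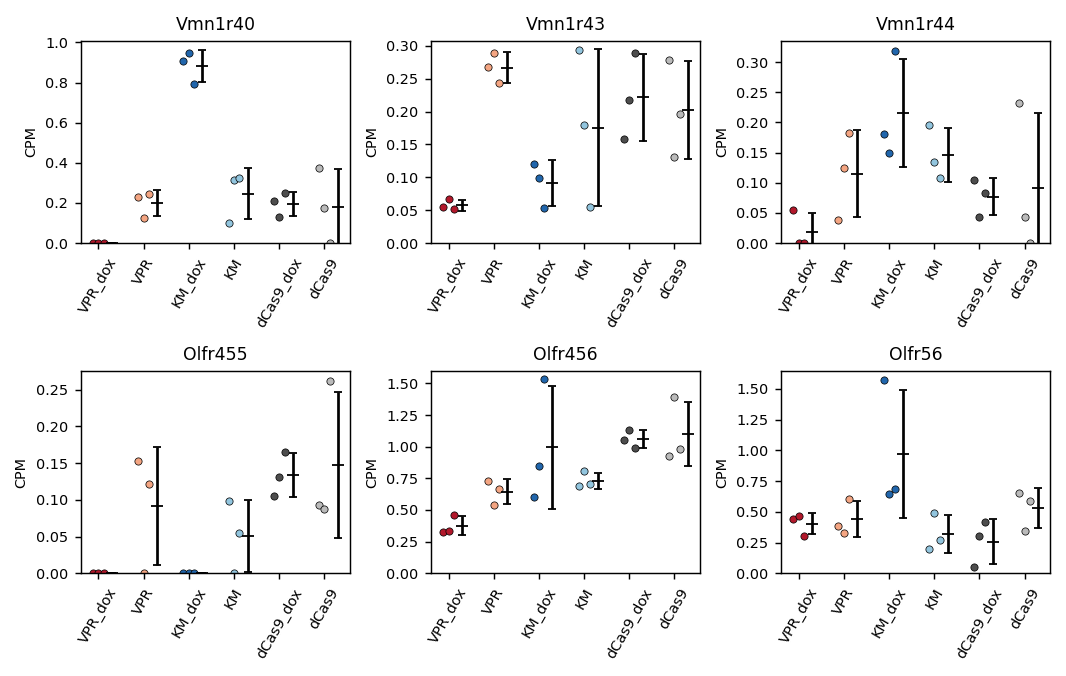
Level in CPM of Vmn1r40, Vmn1r43, Vmn1r44, Olfr455, Olfr456 and Olfr56, by group; points are libraries and bars mean ± SD of 3. Vmn1r40 is at 0 in VPR_dox and highest in KM_dox; Olfr56 is highest in KM_dox with 1 library far above the rest.

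In the control line the induction could be read for few members: again 10 of the 19 had at most 3 counts over the 6 libraries, and in a fit of dCas9_dox and dCas9 alone only Olfr456 entered. With all libraries fitted, edgeR called 0 members and 0.463% of all genes, and 0 members had an unadjusted p under 0.05, against 1 in limma-voom. Vmn1r40 had 4, 3 and 6 counts in dCas9_dox and 8, 4 and 0 in dCas9, and Olfr56 had 1, 7 and 10 in dCas9_dox and 14, 8 and 9 in dCas9. The groups of both genes overlapped. The difference between the repressor and the control line in the change on induction, a comparison added after the values were seen, was a log2 value of 2.43 for Olfr56 (SE 0.62, edgeR adjusted p = 0.0116) and 1.85 for Vmn1r40 (SE 0.78, edgeR adjusted p = 0.263), beside 2.73% of all genes called. So Vmn1r40 was not shown to differ between the lines in this way.

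Without doxycycline the lines could likewise be compared for few members, since 10 of the 19 had at most 3 counts over the 6 VPR and dCas9 libraries, and as many over the 6 KM and dCas9 libraries. Between VPR and dCas9 edgeR called 0 members and 19.5% of all genes, while 2 members had an unadjusted p under 0.05 in edgeR and in limma-voom. These were Olfr456, with 19, 13 and 11 counts in VPR and 20, 32 and 15 in dCas9 (log2 fold change -0.79, SE 0.30, edgeR adjusted p = 0.0513), and Vmn1r4 (log2 fold change 0.87, SE 0.43, edgeR adjusted p = 0.154). In a fit of these groups alone 3 members entered and Olfr456 was called lower in VPR (log2 fold change -0.79, edgeR adjusted p = 0.0396). Between KM and dCas9 edgeR called 0 members and 1.56% of all genes, with 1 unadjusted p under 0.05, again of Olfr456, and 0 in limma-voom, and 2 members entered a fit of those groups alone.

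Of 24 genes of receptor choice and trafficking, chosen with earlier results of these data known, 21 were tested in the activator induction. By edgeR 6 rose and 11 fell, beside 38.2% of all genes called higher and 37.2% called lower, with a median log2 fold change of -0.12 beside 0.00 over all genes tested. Ebf4, a member of the Ebf factor family, rose (log2 fold change 4.14, edgeR adjusted p = 4.99e-20), with 3.56 ± 0.572 CPM in VPR_dox and 0.176 ± 0.18 CPM in VPR. Ebf1 rose too, at 1.01 ± 0.311 CPM in VPR_dox and 0.379 ± 0.0783 CPM in VPR. Ebf3 and Ebf2, of the same family, fell: Ebf3 had 22.7 ± 0.983 CPM in VPR_dox and 38.2 ± 1.13 CPM in VPR, and Ebf2 had 1.87 ± 0.116 CPM in VPR_dox and 3.28 ± 0.432 CPM in VPR. Emx2, a homeodomain factor of olfactory neurons, fell to 3.61 ± 0.6 CPM in VPR_dox, against 11.04 ± 0.179 CPM in VPR. The Lhx2 level was 14.8 ± 1.09 CPM in VPR_dox and 13.9 ± 0.698 CPM in VPR, and its cofactor Ldb1 fell to 57.5 ± 1.84 CPM in VPR_dox, against 86.2 ± 1.52 CPM in VPR. Setdb1, a histone H3K9 methyltransferase, fell to 57.5 ± 2.58 CPM in VPR_dox, against 106 ± 2.87 CPM in VPR. Ehmt2, another such enzyme, rose to 230 ± 8.08 CPM in VPR_dox, against 198 ± 1.20 CPM in VPR. Kdm1a, Lbr and Trim28 were also called higher. Rtp1 averaged 0.439 ± 0.205 CPM in VPR_dox and had no count in VPR. Rtp2 averaged 0 CPM in every group except dCas9, at 0.0155 CPM.

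Of 16 olfactory sensory neuron genes, 7 were tested in the activator induction, 3 called higher and 3 lower, beside the same 38.2% and 37.2% of all genes. The list summed to 241 to 257 CPM in VPR_dox and 224 to 228 CPM in VPR, most of it Ncam1, which fibroblasts express too. Gnal, the G protein subunit of odorant signalling, rose to 1.72 ± 0.277 CPM in VPR_dox, against 0.612 ± 0.121 CPM in VPR (log2 fold change 1.46, edgeR adjusted p = 2.5e-06). Ncam1 and Nqo1 were the others called higher. The 3 called lower were Cngb1, Gng8 and Adcy3, with log2 fold changes of -1.01, -0.97 and -0.22 (edgeR adjusted p = 0.0103, 0.00185 and 0.00111). Omp, which marks the mature neuron, was at 0.195 ± 0.0625 CPM in VPR_dox and 0.301 ± 0.0314 CPM in VPR. The vomeronasal channel Trpc2 was at 0 in all 18 libraries. Of 5 vomeronasal genes 3 were tested, 1 higher and 1 lower. Of the other cell types listed, Pecam1 of endothelium was high in VPR_dox, at 21.3 ± 2.67 CPM, against 0.274 ± 0.0951 CPM in VPR, while the defining Cdh5 and Kdr averaged 0.0183 and 0.183 CPM in VPR_dox. The part of other cell types in the receptor values was not tested. The neuronal genes Rbfox3 and Snap25 and the epithelial Epcam had no count in any group, whereas the neuronal tubulin Tubb3 was abundant. Tubb3 fell to 21.2 ± 0.563 CPM in VPR_dox, against 34.4 ± 0.872 CPM in VPR, and rose to 52.9 ± 0.508 CPM in KM_dox, against 34.2 ± 1.41 CPM in KM.

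Other gene families that stand in clusters and are restricted to some tissues were read in the same way. All 3 VPR_dox libraries lay above the other 15 in 29 of the 41 members, which is 2.14% of the 1354 receptor genes. They did so in 3 of 35 Tas2r bitter taste receptor genes, 0 of 15 Taar trace amine receptor genes and 0 of 57 Krtap hair keratin-associated genes. The same held for 7 of 49 Cyp2 genes, 6 of 22 Ugt genes, 1 of 42 Defb genes and 0 of 58 clustered Pcdh genes. These shares also depend on how many genes of a family were read. At least 10 counts were held by 41 receptor, 6 Tas2r, 0 Taar, 1 Krtap, 11 Cyp2, 11 Ugt, 4 Defb and 43 Pcdh genes. Among all 22268 genes with at least 10 counts, 27.7% had every VPR_dox library above the other 15. The difference between the families was not tested.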

How the data were processed

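Per the labels' protocols, total RNA was treated with DNase and made into stranded total-RNA libraries read from both ends. The authors deposited whole-number counts per gene, with no normalization, for 47937 gene IDs. They give mm10 as the genome build, per the submitters' processing notes. What aligned and counted the reads, with which annotation and strand option, is not given in the sources used here. Receptor genes that overlap another gene, on either strand, or that have a close copy therefore have uncertain counts.

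Symbols, coordinates (1-based, GRCm38) and exons came from GENCODE M21, in which 47310 IDs were found by their unversioned ID. The members and the gene lists were chosen with earlier results of these data known. Counts were fitted with edgeR 4.0.16 (R 4.3.3): TMM normalization, filterByExpr, the robust quasi-likelihood test, 6 groups over all 18 libraries and 12 residual degrees of freedom, with Benjamini-Hochberg adjustment over 16216 genes at 0.05. The common biological coefficient of variation was 0.0246. The fit was tested on simulated data. CPM used TMM-scaled library sizes, and per-length values used the union of annotated exons. Ratios of pooled counts carry exact 95% binomial intervals, and a floor of 3 counts over a group stood for no count. Shared 31-base words between transcripts marked near-identical genes. Depth was 14928765 to 25262912 counts per library.

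Members were named by rule: the 15 with the highest VPR_dox CPM, those called in the other comparisons, the 8 with the highest mean outside VPR_dox, those next to the limit of 10 counts, the highest of each cluster, the highest Vmn genes and those with the lowest fold. Olfr548-ps1, Olfr551, Olfr550, Olfr552, Olfr10, Olfr690, Olfr691, Olfr859, Olfr1390, Olfr1391 and Olfr455 fall outside it and were named after their values were seen. Alternatives were other scalings, filters and tools (DESeq2 1.42.0 and limma-voom 3.58.1), a replicate block, fits of the compared groups only and leaving out each library.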

Additional observations from a re-analysis of the deposited data

Results flagged for a closer look

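Vmn1r40 moved in opposite directions in 2 lines. It had 0 CPM in every VPR_dox library, below every VPR library, whereas every KM_dox library, with 0.795 to 0.946 CPM, lay above every KM library, with 0.0980 to 0.326 CPM. The difference between the activator and the repressor line was not tested, because the activator libraries entered the choice of members. Induction in these lines also differed in dose and time.

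Olfr56 differed between the repressor and the control line in its change on induction. The difference was a log2 value of 2.43 (edgeR adjusted p = 0.0116). Its level was above every KM library in 3 of 3 KM_dox libraries, and the dCas9_dox libraries overlapped the dCas9 libraries. Under the other settings that gave an adjusted p it ranged from 0.00416 to 0.115, and the call was lost without the first library of KM_dox, KM, dCas9_dox or dCas9.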

How the results depend on the processing

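With a filter of 10 summed counts or of 1 count, in place of filterByExpr, 30 members were called higher and 3 lower in the activator induction, against 15 and 1, because 41 members entered in place of 19. Requiring every VPR_dox library above the other 15 gave 29. Leaving out 1 library, which let 20 to 22 members enter, gave 16 to 18 higher and 1 lower. Under total counts or scaling to mitochondrial genes 2 were called lower, and 0 in a fit of VPR_dox and VPR alone, where Vmn1r40 did not enter. The median over all genes tested of the log2 change was 0.00, but -0.22 with total counts, -0.74 with mitochondrial genes and 0.11 with upper-quartile factors. Calls over all genes, 6190 higher and 6028 lower, became 3955 and 8094 with total counts and 1404 and 12993 with mitochondrial genes.

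In the repressor induction 1 to 2 members were called on leaving out 1 library, and Olfr56 was the one lost, without the first KM_dox or the first KM library. In the control induction and between KM and dCas9 no alternative called a member, but few members had reads enough to be called. Between VPR and dCas9 1 member was called with mitochondrial scaling and in the fit of the 2 groups alone, and 0 to 1 on leaving out a library. In each case it was Olfr456, lower in VPR, and the libraries were the first or the third of VPR_dox or KM_dox. For the difference between the repressor and control line 0 to 1 were called on leaving out a library. DESeq2 gave no adjusted p (NA) for any member outside the activator induction, so it gives no count there. Its unadjusted p was under 0.05 for Vmn1r40 and Olfr56 in the repressor induction. Where no cause is named, the cause was not tested. Olfr56, not called in the activator induction, reversed to a log2 change of 0.025 with upper-quartile factors, and ranged from -0.24 to 0.15 on leaving out 1 library, above 0 without the third VPR_dox (0.10) or the third VPR library (0.15). Vmn1r4, also not called, reversed to -0.29 with mitochondrial scaling. A limit of 5 summed counts would leave 59 members and a limit of 20 would leave 33.

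Libraries with the same number did not deviate together (correlations of -0.0230 to 0.0246), so the numbers do not pair them. A replicate block across lines or within each line called the same numbers, 15 higher and 1 lower in the activator and 2 in the repressor induction. At these depths 1 count is about 0.05 CPM, so members with few counts are known within wide counting intervals.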

Other observations

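Several genes with a receptor name that the symbol rule leaves out as pseudogenes were read like the members. Vmn2r-ps54, on chromosome 7, had 58 counts in VPR_dox and 2 in VPR. Vmn2r-ps159, on chromosome 4, which the annotation classes as protein-coding, had 30 counts in VPR_dox and 4 in VPR. Vmn2r-ps4 and Vmn2r-ps12, within the family C cluster of chromosome 3, had 16 and 12 counts in VPR_dox and none in the other 15 libraries. Olfr1372-ps1, on chromosome 11, had 26 counts in VPR_dox and 27 in VPR, and 22 to 40 in each of the other groups. Olfr755-ps1, on chromosome 17, had 2 counts in VPR_dox and 8 in VPR. These genes were picked after their values were seen, and no test was made on them.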
